A study of Mus musculus with 14 samples.

Results

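Genes of glucose metabolism and of the response to low oxygen were examined in the H3K27ac sites of immortalised mouse embryo fibroblasts (iMEF). They comprised the 10 genes Slc2a1, Hk1, Hk2, Pfkl, Pfkp, Aldoa, Gapdh, Pkm, Ldha and Vegfa, chosen by name for their function, out of 21755 protein-coding genes on chromosomes 1 to 19 and X. The choice was made with earlier results of these data known. A site was assigned to a gene if it overlapped the gene body or the 20 kb on either side of it, and this gave 113 of the 122228 sites in the list.

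The study used iMEF cells with floxed alleles of Ash2l and with Cre-ER, whose activity can be induced, in which exon 4 of the endogenous Ash2l had been deleted and a lentiviral construct provided human ASH2L with FKBP-F36V at its N-terminus. ASH2L is a subunit of the KMT2 complexes that methylate histone H3 at lysine 4, and the compound dTAG-13 ties the fusion protein to Cereblon and so brings about its degradation. The 12 H3K27ac libraries comprised 2 from cells without dTAG, titled WT in the labels, and 2 each from cells treated for 30 min, 2 h, 4 h, 8 h and 16 h, while 1 input library each came from cells without dTAG and from cells after 16 h. By this description all groups, the control included, carried the deletion and the fusion protein, and the study carried out its ChIP-seq in 1 clone, NG3. The values analysed here were the positions of all sites that the study had found, whichever the sample, with no value for a single library, and changes over time were therefore not analysed here. For the same reason the read depth behind a site was unknown, and no width or count below has a replicate error. Since the sites of all samples were joined, a site may come from control cells, from treated cells or from both.

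As a check of the cell type, 6 of 7 fibroblast markers had a site at a promoter, and the remaining marker, Col1a1, lay in a site too wide for its middle to fall near a transcription start site (TSS), with all bases within 1 kb of its reference TSS in sites (100%). Of 10 markers of epithelial, blood, endothelial, pluripotent and liver cells, 1 had a promoter site, the endothelial gene Cdh5. For all protein-coding genes the share was 54.7%. Sites away from any TSS, the distal sites defined below, separated the markers less. At least 1 was found for 6 of the 7 fibroblast markers and 7 of the 10 others, compared to 59.3% of all protein-coding genes. Among the others, the epithelial gene Cdh1 had the most, with 15.

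Glycolysis converts glucose to pyruvate in the cytosol. Glucose enters the cell through transporters of the SLC2A family, hexokinases and phosphofructokinases carry out its committed steps, and lactate dehydrogenase reduces the resulting pyruvate to lactate. When oxygen is low, the hypoxia-inducible factors HIF-1 and HIF-2 are no longer degraded, bind the core ACGTG or GCGTG together with ARNT and stimulate many genes of this pathway as well as Vegfa, the gene for the growth factor of blood vessels. Acetylation of histone H3 at lysine 27 (H3K27ac) marks active promoters and enhancers.

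All 10 genes had a promoter site, that is a site whose middle was within 1 kb of a TSS of any annotated transcript of the gene (10 of 10, exact 95% binomial interval 69.2 to 100%, counting error only). This compared to 54.7% of all protein-coding genes. With the reference TSS alone in place of any TSS, it was 5 of 10 genes, compared to 50.6%. The promoter sites were wide, and 7 of the 10 genes had one of more than 2 kb, compared to 8.91% of all protein-coding genes (1938 of 21755). The latter share also counts the genes with no promoter site, and 11908 genes had one. The median of the widest promoter site was 2218 bp for the 10 genes and 1141 bp for the 11908 protein-coding genes with a promoter site, whose upper quartile was 1677 bp. A value above this quartile was found for 8 of the 10 genes, and the exceptions were Hk1 and Vegfa. The genes differed more in their distal sites, that is sites whose middle was more than 1 kb from every TSS of any gene. Slc2a1, Hk2 and Pkm had 16 to 18 of them, whereas Pfkl and Aldoa had 0.

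**Figure D1:**
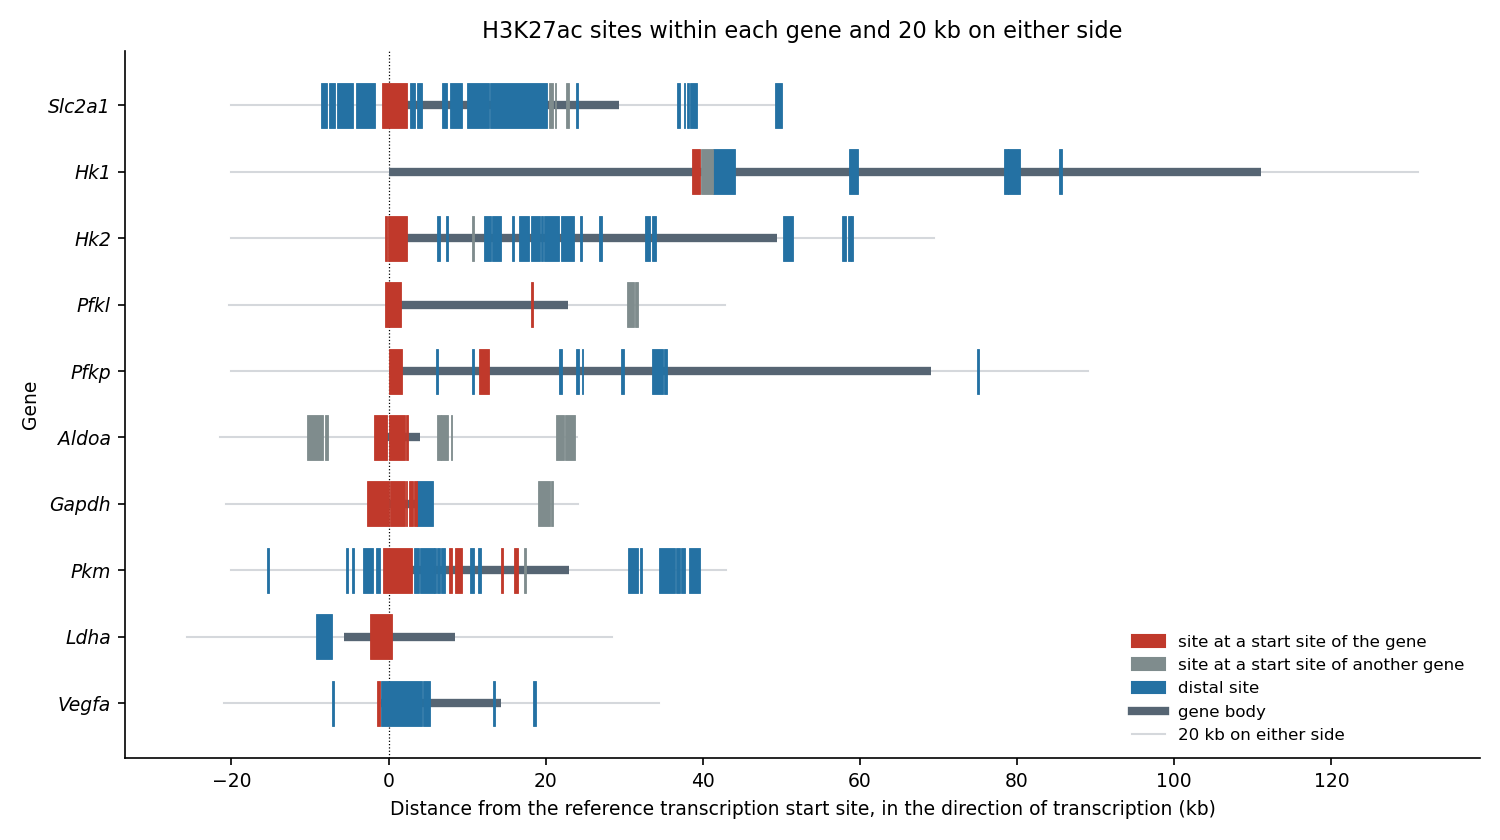
H3K27ac sites of the 10 genes. The x axis gives the distance from the reference TSS in kb, in the direction of transcription. Thick lines are gene bodies, thin lines the 20 kb on either side, and boxes the sites at a TSS of the gene (red), at a TSS of another gene (grey) and distal (blue). Boxes are to scale with an outline that slightly widens the narrowest ones. Distal sites line the bodies of Slc2a1, Hk2 and Pkm, while Ldha has 2 sites in all.

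The 113 sites consisted of 23 at promoters of the 10 genes themselves, 17 at TSSs of neighbouring or overlapping genes and 73 distal sites. Of the distal sites, 45 were in gene bodies, 11 before the genes and 17 after them. Together the sites covered 113.6 kb of the 744.7 kb searched. The promoter sites had a median width of 1104 bp, compared to 678 bp for all 22884 promoter sites in the list. The latter are sites near a TSS of any annotated gene, non-coding genes included, and so form a broader set. The distal sites had a median of 517 bp, compared to 369 bp for all 99287 distal sites. These comparisons have no test, since the list gives positions only.

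To show the sequence at these promoters, whether or not it lay in a site, the 250 bases before a TSS are printed 5′ to 3′ on the strand of the gene for 7 genes (GRCm38.p6), with every HIF core in capitals, read as ACGTG or GCGTG or, on the other strand, as CACGT or CACGC. They comprise Slc2a1, the promoters with several cores (Hk2, Pfkp, Gapdh and Ldha), Aldoa, and both starts of Hk1, of which only the internal one lay in a site. The regions are chr4:119108461-119108710 (plus strand) for Slc2a1, chr10:62379909-62380158 (minus) for the reference TSS of Hk1 and chr10:62340543-62340792 (minus) for its internal TSS, chr6:82774455-82774704 (minus) for Hk2, chr13:6648778-6649027 (minus) for Pfkp, chr7:126799255-126799504 (minus) for Aldoa, chr6:125165774-125166023 (minus) for Gapdh and chr7:46845589-46845838 (plus) for the TSS of Ldha at 46845839.
Slc2a1: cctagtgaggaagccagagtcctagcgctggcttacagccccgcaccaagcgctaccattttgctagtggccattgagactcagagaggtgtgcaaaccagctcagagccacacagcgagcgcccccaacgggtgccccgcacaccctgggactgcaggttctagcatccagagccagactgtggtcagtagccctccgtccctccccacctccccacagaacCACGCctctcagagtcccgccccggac
Hk1, reference TSS: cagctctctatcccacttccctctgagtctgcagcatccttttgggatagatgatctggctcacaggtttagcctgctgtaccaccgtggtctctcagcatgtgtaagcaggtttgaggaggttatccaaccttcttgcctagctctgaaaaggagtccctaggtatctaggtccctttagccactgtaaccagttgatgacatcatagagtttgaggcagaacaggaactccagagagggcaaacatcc
Hk1, internal TSS: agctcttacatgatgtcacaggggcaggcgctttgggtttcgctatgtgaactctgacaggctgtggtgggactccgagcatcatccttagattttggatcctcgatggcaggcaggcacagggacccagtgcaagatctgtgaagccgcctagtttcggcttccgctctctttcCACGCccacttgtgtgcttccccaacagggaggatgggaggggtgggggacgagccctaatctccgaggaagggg
Hk2: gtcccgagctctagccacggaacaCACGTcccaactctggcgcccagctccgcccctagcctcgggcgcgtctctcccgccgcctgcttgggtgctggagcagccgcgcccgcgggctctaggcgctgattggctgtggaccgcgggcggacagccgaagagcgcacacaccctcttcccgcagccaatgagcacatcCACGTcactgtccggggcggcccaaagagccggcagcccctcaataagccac
Pfkp: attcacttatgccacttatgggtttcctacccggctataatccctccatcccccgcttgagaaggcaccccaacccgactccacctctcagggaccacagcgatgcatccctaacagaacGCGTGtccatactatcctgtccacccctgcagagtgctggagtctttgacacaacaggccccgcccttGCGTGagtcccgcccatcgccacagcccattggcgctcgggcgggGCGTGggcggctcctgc
Aldoa: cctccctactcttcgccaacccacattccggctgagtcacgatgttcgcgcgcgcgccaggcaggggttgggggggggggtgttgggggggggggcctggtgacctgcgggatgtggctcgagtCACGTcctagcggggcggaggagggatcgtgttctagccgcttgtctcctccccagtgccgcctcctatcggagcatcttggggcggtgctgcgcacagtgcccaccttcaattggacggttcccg
Gapdh: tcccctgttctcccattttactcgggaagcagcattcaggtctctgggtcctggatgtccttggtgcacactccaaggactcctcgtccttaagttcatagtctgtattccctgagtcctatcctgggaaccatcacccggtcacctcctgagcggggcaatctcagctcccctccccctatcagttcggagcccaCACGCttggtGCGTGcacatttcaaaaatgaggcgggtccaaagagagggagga
Ldha: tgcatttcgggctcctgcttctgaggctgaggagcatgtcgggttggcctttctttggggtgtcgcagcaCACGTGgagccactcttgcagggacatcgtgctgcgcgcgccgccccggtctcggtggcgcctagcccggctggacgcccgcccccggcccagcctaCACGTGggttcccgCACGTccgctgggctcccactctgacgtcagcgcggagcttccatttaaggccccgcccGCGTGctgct

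The reference TSS is the 5′ end of the principal transcript in the annotation. In the 250 bases before it, 7 of the 10 genes had a HIF core (exact 95% interval 34.8 to 93.3%), compared to 43.3% of all protein-coding genes. Hk1, Pkm and Vegfa had none in this window, but each had one before another annotated TSS. For Vegfa, all 250 bases of the window were annotated untranslated sequence of the gene, and other TSSs lie up to 1013 bp upstream. With the letters ACGTG alone, the count at the reference TSS was 2 of 10, for Hk2 and Aldoa, compared to 17.5% of all genes. The GC box GGGCGG, bound by Sp factors, was found in 5 of 10 genes, compared to 42.1%. The E-box CACGTG, which holds ACGTG on both strands and was therefore counted as a pair of cores, was found in 0 of 10, compared to 6.65%. The sequence of Ldha printed above belongs to another TSS, so its ACGTG and CACGTG letters are not in these counts. Before TSSs other than the reference TSS, ACGTG was also found for Slc2a1, Pfkp, Gapdh, Pkm and Ldha. CACGTG was found there for Hk2, Aldoa, Gapdh and Ldha. For all genes, only the reference TSS was searched. The interval for the HIF core includes the share of all genes, and a match of these letters is a description of the sequence only.

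Glucose uptake is represented by Slc2a1, which encodes the transporter GLUT1 (chr4:119108711-119137983, plus strand). All 5 annotated TSSs of the gene were in a site of 3271 bp, which reached from 875 bp upstream to 2395 bp downstream of the reference TSS and covered 93.8% of the bases within 1 kb of it. The site was wider than 98.7% of all sites in the list. Further downstream was the widest site found near any of the 10 genes. It measured 7366 bp, lay within an intron, reached from 12858 to 20223 bp after the TSS and was wider than 99.9% of all sites. In addition, 4 distal sites were between 1731 and 8556 bp upstream, and 5 were beyond the 3′ end of the gene. In all, 16 distal sites gave a density of 23.1 per 100 kb, higher than for 97.2% of protein-coding genes, and 59.4% of the gene body was in sites. The 3 remaining sites were in the gene body near the TSSs of the microRNA gene Mir1957a and of Gm12867.

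The hexokinases, which phosphorylate glucose on entry, differed at their reference TSSs. Hk1 (chr10:62268855-62379908, minus strand) had 0% of the bases within 1 kb of its reference TSS in sites. The sequence there was poor in CpG dinucleotides, with 1 in the 250 bases printed above and a ratio of observed to expected CpG of 0.109 in the surrounding 1001 bases, compared to a median of 0.737 for genes with a promoter site. Hk1 has 12 annotated TSSs, and 1 of them was in a site. This internal TSS, at position 62340542 and 39366 bp downstream of the reference TSS, is the start of a transcript in the consensus coding set and had 10 CpG dinucleotides in the 250 bases before it. Other TSSs of Hk1 had similar numbers, with 10 at 62327767 and 9 at 62375100, and were not in a site. The site at the internal TSS, of 1104 bp (chr10:62340247-62341350), also holds the TSSs of Hk1os, an RNA gene on the opposite strand. It can therefore not be assigned to either gene alone. The next site, 64 bp further downstream, measured 1564 bp and was followed after 17 bp by an intronic site of 2809 bp, and the 3 formed a region of 5558 bp. The other 4 distal sites of Hk1 were 58645 to 85725 bp after the reference TSS.

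Hk2, the inducible hexokinase (chr6:82725025-82774454, minus strand), had its reference TSS in a site of 2399 bp that reached only 45 bp upstream and 2353 bp downstream. A second promoter site of 257 bp lay 225 to 481 bp upstream, and the promoter cover was 65.1%. It was asymmetric, with 30.2% of the bases upstream and 100% of those downstream in sites. Of the HIF cores printed above, that at -52 (counted from the TSS) fell between both sites and that at -226 on the edge of the narrower site. Within the 2399-bp site there were 15 HIF cores. Hk2 had 18 distal sites, of which 14 were in the gene body and 4 beyond its 3′ end, while 0 were upstream within 20 kb. The density was 20.1 per 100 kb, higher than for 96.0% of protein-coding genes.

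Phosphofructokinase carries out the committed step of glycolysis, and its liver and platelet forms are encoded by Pfkl and Pfkp. Pfkl (chr10:77986947-78010083, minus strand) had a site of 2037 bp around its reference TSS, with a cover of 71.1%, and 11 HIF cores within it. A site of 313 bp was near the TSS of a non-coding transcript, 18109 to 18421 bp downstream. Pfkl had 0 distal sites in a window of 63.1 kb, and the 2 remaining sites of this window lay at the neighbouring gene 1810043G02Rik. Between both promoter sites of Pfkl, 16493 bp of the gene body were free of sites.

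Pfkp (chr13:6579768-6648777, minus strand) had its widest promoter site, of 1689 bp, from 35 to 1723 bp downstream of the reference TSS, so that the cover was 0% upstream and 96.6% downstream, or 48.3% in all. The 3 GCGTG cores printed above, at -130, -62 and -17, were therefore outside any site. A TSS 52 bp further downstream, the start of 4 annotated transcripts, was inside the site. Another promoter site of 1307 bp held an internal TSS 12127 bp downstream. The 9 distal sites were narrow, with a median width of 293 bp, and 8 of them were in the gene body.

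Aldoa, the aldolase of most tissues (chr7:126795234-126800751, minus strand), is a gene of 5518 bp, and 63.6% of it was in sites. Sites of 2009 and 1713 bp were separated by 241 bp, and the reference TSS was in this gap. The cover was nonetheless 88.0%, and 11 of 12 TSSs were in a site. The CACGT core at -126 in the sequence above was in the gap as well. Aldoa had 0 distal sites, but the surrounding 20 kb on either side were dense with genes. Of the 10 sites in its window, 7 were at TSSs of Ypel3, Gm9967, Ppp4c, Gm44856 and of a further annotated gene with the name Aldoa, whose TSS lies upstream. The sites of 2009, 1713 and 206 bp formed a region of 4401 bp. Fam57b, on the opposite strand, has a TSS within this region, so that these sites cannot be assigned to Aldoa alone.

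Gapdh, glyceraldehyde-3-phosphate dehydrogenase (chr6:125161715-125166467, minus strand), had 85.3% of its body in sites, a higher share than in 98.9% of protein-coding genes. Its 4753 bp and the bases around it carried 6 sites separated by gaps of 50 to 221 bp, and these formed a region of 8489 bp. The widest site measured 2789 bp, lay entirely upstream and ended 4 bp before the reference TSS, and the next measured 1940 bp and began 127 bp after it. The promoter cover was 93.5%. The cores at -54 and -44 were in the 2789-bp site, which held 13 cores in all. Gapdh had 1 distal site, which measured 2085 bp and reached across the 3′ end of the gene. This site also overlapped the gene Iffo1, and the 2789-bp site overlapped Ncapd2, so that these sites cannot be assigned to Gapdh alone.

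Gapdh has many processed pseudogenes, and sequence that occurs more than once in the genome may be lost when reads that align to several places are removed. Of the 75-base words in its exons, 56.5% were found more than once in the genome, at up to 49 places. In the gene body, the repeated share was 11.2% of the words that start in sites and 52.4% of those that start outside them. The gaps between the sites were unequal in this respect. Those of 185 and 221 bp had 85.9% and 93.7% of their words repeated, whereas those of 50, 112 and 130 bp had 0%. The part of repeated sequence in the 2 wider gaps was not tested. For the exons of the other genes, the share was 16.8% for Pkm, 4.02% for Ldha and 0.662% for Aldoa, and 0% for the remaining 6. Within 1 kb of the reference TSS, it was at most 1.25%, for Ldha.

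Pkm, the pyruvate kinase of muscle and of proliferating cells (chr9:59656368-59679375, plus strand), had the widest promoter site of the 10 genes. It measured 3715 bp, wider than 99.1% of all sites, held 9 of the 11 TSSs and reached from 678 bp upstream to 3036 bp downstream of the reference TSS. The cover was 83.9%. Pkm also had the highest density of distal sites among the 10 genes, 18 sites or 28.6 per 100 kb, higher than for 98.4% of protein-coding genes. Of these 18, 5 were upstream, 7 in the gene body and 6 beyond the 3′ end, and the last 6 overlapped Gramd2, the next gene. Together, 10 sites less than 1 kb apart formed a region of 12627 bp around the TSS, and Slc2a1 had a region of similar length, 12745 bp with 7 sites. These were longer than those of 97.7% and 97.8% of genes with a promoter site.

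Ldha, the lactate dehydrogenase subunit that predominates in glycolytic cells (chr7:46841475-46855627, plus strand), had 2 sites in a window of 54.2 kb. The promoter site of 2835 bp held 10 of the 13 TSSs and reached from 2395 bp upstream to 439 bp downstream of the reference TSS. It held 20 HIF cores, the highest number in a site of the 10 genes. The reference TSS, at 46847131, lies 1292 bp downstream of the TSS at 46845839, which begins a cluster of 7 TSSs. The cover was 72.0% at the reference TSS and 100% at 46845839. In the 250 bases before the latter, printed above, there were 6 cores. Of these, 4 came from E-boxes at -180 and -83, and the others were at -69 and -10. The other site, a distal one, measured 2110 bp, lay 7191 to 9300 bp upstream and held 0 cores.

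Vegfa, the target of hypoxia-inducible factors in this set that is not part of glycolysis (chr17:46016993-46032369, minus strand), had the highest cover, with 100% of the bases within 1 kb of its reference TSS in sites. This was due to a site of 5288 bp (chr17:46027069-46032356), wider than 99.7% of all sites, which held 3 of 8 TSSs and 12 HIF cores. Because its middle was more than 1 kb from every TSS, it was counted as distal, and the promoter site counted for Vegfa was a site of 414 bp, 1084 to 1497 bp upstream of the reference TSS. If any overlap with the 1-kb window was taken in place of the middle of a site, the median of the widest promoter site over the 10 genes was 2594 bp. Both sites and the next, of 798 bp, formed a region of 6733 bp. The other distal sites of Vegfa measured 239 to 798 bp, and 1 of these was upstream of the gene.

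**Figure D2:**
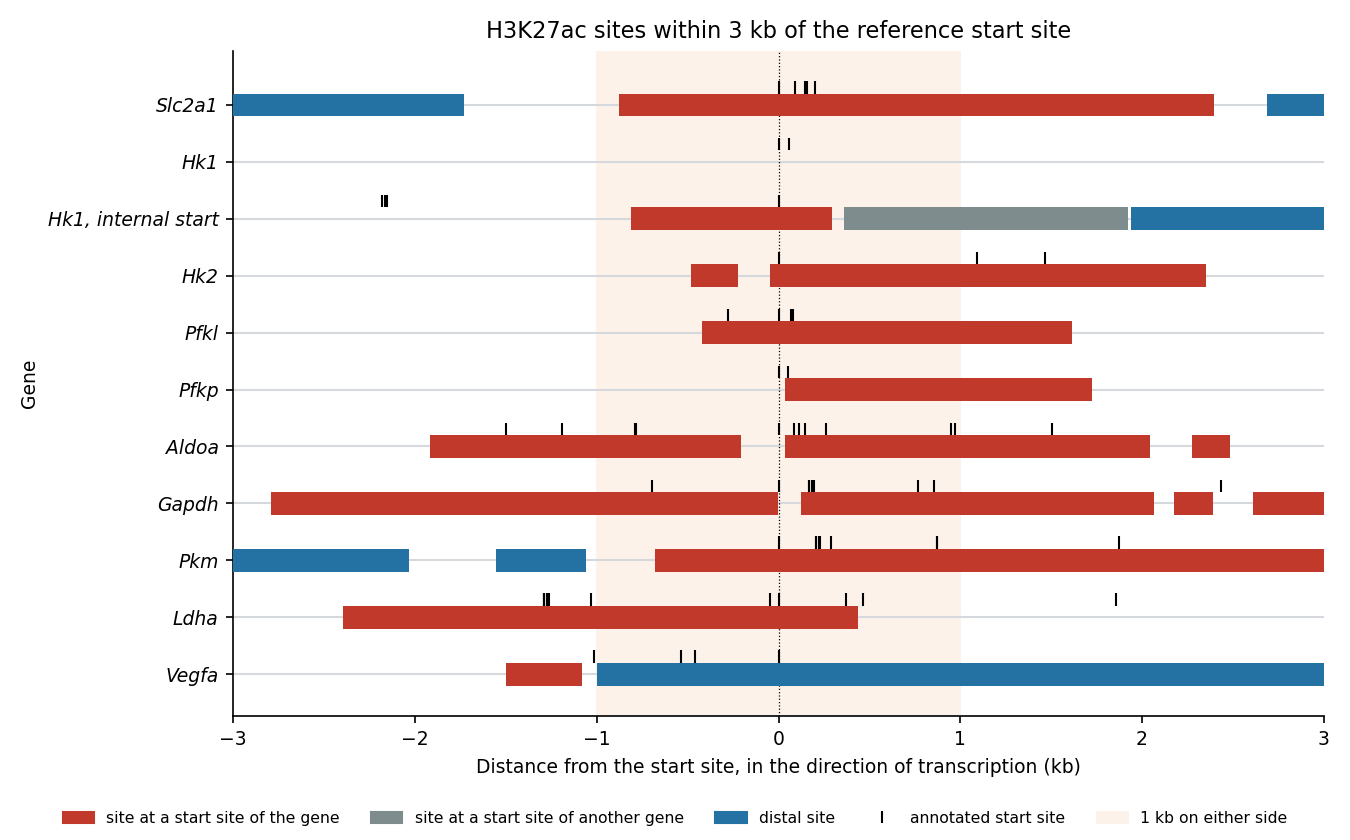
Sites around the reference TSS of each gene, and around the internal TSS of Hk1. The x axis gives the distance from that TSS in kb, in the direction of transcription. Boxes are sites in the colours of the map above, ticks are annotated TSSs and the shaded band marks 1 kb on either side. The reference TSSs of Aldoa and Gapdh lie in gaps of 241 and 130 bp, Pfkp is covered on the downstream side, and Hk1 is covered at its internal TSS.

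In view of these gaps, the reference TSS itself lay in a site for 6 of the 10 genes, compared to 38.6% of all protein-coding genes, although at least 1 TSS was in a site for all 10. The 4 genes in which it did not were Hk1, Pfkp, Aldoa and Gapdh. The promoter cover followed the order Vegfa with 100%, Slc2a1 with 93.8%, Gapdh with 93.5%, Aldoa with 88.0%, Pkm with 83.9%, Ldha with 72.0%, Pfkl with 71.1%, Hk2 with 65.1%, Pfkp with 48.3% and Hk1 with 0%. There is no spread over samples from which to say which neighbours in this order differ. The median of 77.9% compared to 64.1% for protein-coding genes with a promoter site (quartiles 43.4 and 81.0%) and to 20.5% for all protein-coding genes. Cover was higher downstream of the TSS than upstream, with medians of 98.3% and 73.7%, compared to 82.3% and 48.85% for genes with a promoter site. The exceptions were Ldha, with 100% upstream and 43.9% downstream, and Gapdh, with 99.7% and 87.4%. Hk1 and Vegfa had the same value on both sides.

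**Figure D3:**
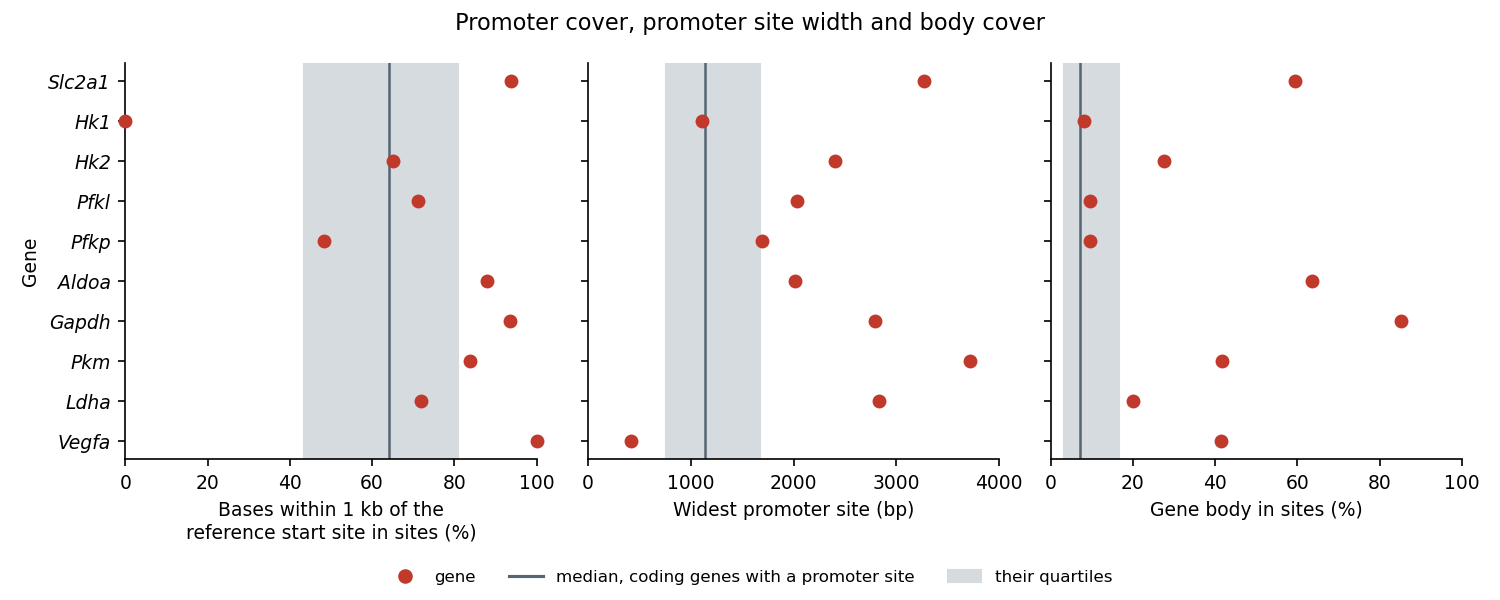
Promoter cover (%), width of the widest promoter site (bp) and share of the gene body in sites (%) for each of the 10 genes (points). The line is the median and the band the quartiles of the 11908 protein-coding genes with a promoter site. For 8 genes the widest promoter site is above the upper quartile, and for 7 the body cover is. Vegfa is low in the middle panel because its 5288-bp site is counted as distal.

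Short genes are covered to a greater extent than long ones by sites at their starts, so body cover was compared within classes of gene length. The median body cover was 34.5% for the 10 genes and 7.07% for genes with a promoter site. Gapdh and Aldoa, both shorter than 10 kb, had 85.3% and 63.6%, compared to a median of 22.2% and an upper quartile of 44.1% for the 2789 genes of this class. For the 6 genes from 10 to 50 kb, the median was 34.5%, compared to 6.14% and an upper quartile of 11.6%. In this class the lowest value was that of Pfkl, with 9.53%. Hk1 and Pfkp, the longest, had 8.05% and 9.45%, compared to 3.64% and an upper quartile of 8.05%.

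Distal sites were found for 8 of the 10 genes (exact 95% interval 44.4 to 97.5%), compared to 59.3% of all protein-coding genes. The median was 5 sites per gene, compared to 1 for all protein-coding genes and 3 for those with a promoter site. Expressed per 100 kb of window, the medians were 5.78, 1.90 and 3.95. The 10 genes separated into Pkm, Slc2a1 and Hk2, with densities of 28.6, 23.1 and 20.1 per 100 kb, and the remaining 7, with 0 to 9.03. The upper quartile for genes with a promoter site was 8.84 per 100 kb, and Vegfa, with 9.03, was just above it. Of its 5 distal sites, 1 was the 5288-bp site that covers its reference TSS, and its place above the quartile rests on this site. Gapdh and Ldha, with 1 distal site each, as well as Pfkl, Aldoa and Hk1 were below the median of genes with a promoter site. These medians depended on how distal was defined. If only the gene body was searched, the density was 15.6 per 100 kb, and if sites within 3 kb of a TSS were left out, it was 3.62.

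**Figure D4:**
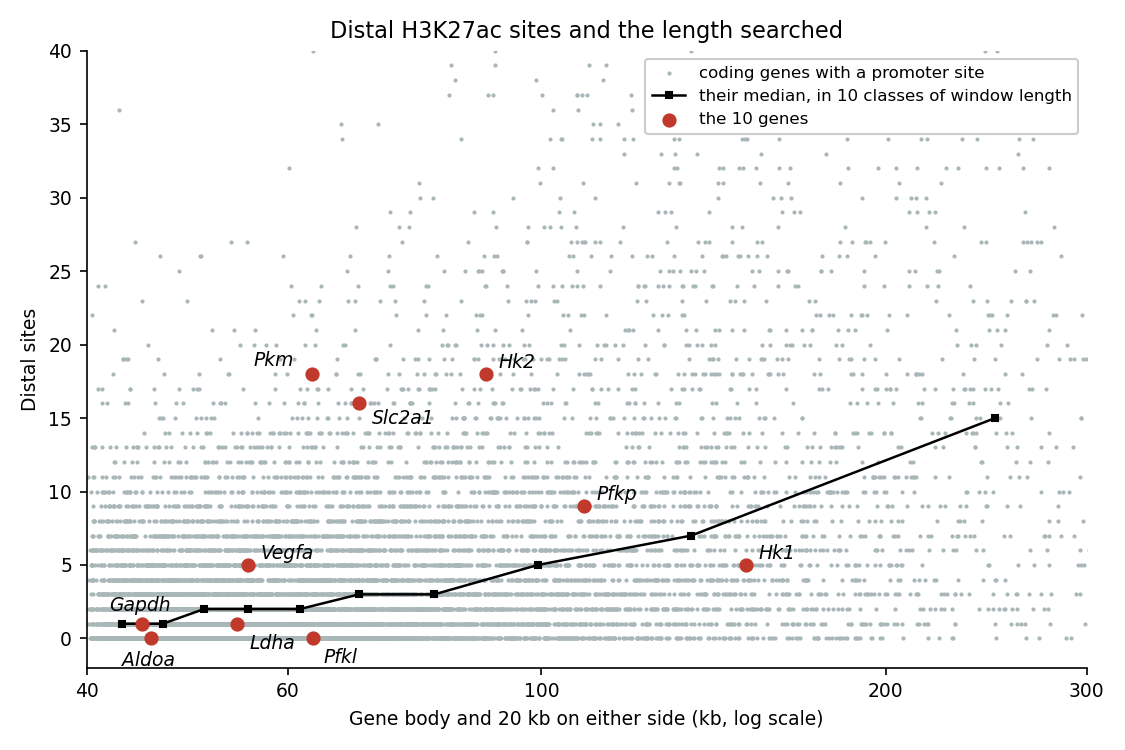
Distal sites per gene (y axis) against the length of the gene body and 20 kb on either side (x axis, kb, log scale). Red points are the 10 genes, grey points the protein-coding genes with a promoter site, and black squares the median of these genes in 10 classes of window length. Genes beyond the limits of the axes are not drawn. Pkm, Hk2 and Slc2a1 are well above the medians at their length, whereas Pfkl, Aldoa, Ldha and Hk1 are below them. The count of Vegfa includes its 5288-bp site, which covers its reference TSS.

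HIF cores were present in the promoter sites of all 10 genes, compared to 91.5% of the protein-coding genes with a promoter site, so that their presence did not set the 10 genes apart. Their density differed more. The 23 promoter sites had 3.85 cores per kb, compared to 2.65 per kb in all promoter sites of the list, which include those of non-coding genes. Among sites of more than 2 kb, the 7 of these genes had 4.41 cores per kb and the 2039 in the list had 2.45. The 7 sites ranged from 2.45 per kb for Slc2a1 to 7.05 for Ldha, and they leave out the 5288-bp site of Vegfa, counted as distal. Among sites of at most 1 kb, the 10 genes had 2.66 per kb and the list 2.54. Among those of 1 to 2 kb, the values were 3.10 and 2.92. In all of these densities, an E-box counted as a pair of cores. By gene, the density was 7.05 per kb in Ldha, with 20 cores, and lowest in Aldoa, with 2.04 per kb. For Vegfa it depended on the definition of a promoter site, with 7.25 per kb from 3 cores in the site of 414 bp, and 2.27 per kb in the 5288-bp site over its reference TSS. In distal sites, it was 1.58 per kb for the 10 genes and 1.40 per kb for all. The sites also differ in base composition, which was not adjusted for, and no test was applied.

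The 10 genes were then set beside related genes. The isozymes and paralogs of the 10 genes carry out the same steps in other tissues or are related factors. Of these, 4 of 14 had a promoter site, compared to 54.7% of all protein-coding genes. A promoter site of more than 2 kb was found for 0 of 14, compared to 8.91%. The 4 with a promoter site were Vegfc with a site of 1814 bp, Vegfb with 1680 bp, Pfkm with 1361 bp and Slc2a3 with 925 bp. No promoter site was listed for Hk3, Hkdc1, Aldoc, Gapdhs, Pklr, Ldhb, Ldhc, Slc2a2, Slc2a4 and Pgf. Some of these are neighbours of the 10 genes. Hkdc1 lies 3228 bp from Hk1 and had 0 sites in its body and 20 kb on either side, and Ldhc, the lactate dehydrogenase of the testis, lies 5575 bp from Ldha and had 1 site in its window, which was the promoter site of Ldha. The median promoter cover over the 14 genes was 0%, compared to 77.9% for the 10 genes. The 14 genes have 3 to 8 annotated TSSs each and the 10 genes 4 to 13. A gene with more TSSs has more chances to meet the definition of a promoter site.

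Among 16 genes of the other steps of glycolysis, 13 had a promoter site, compared to 54.7% of all protein-coding genes. A promoter site of more than 2 kb was found for 3, compared to 8.91%, the widest being that of Pfkfb2 with 2722 bp. The genes with no promoter site were Pgk2 and Pgam2, isozymes of testis and muscle, and Slc16a3, a lactate transporter. The median promoter cover of the 16 genes was 56.4%. The enolase gene Eno1 had 93.0% and Slc16a1, another lactate transporter, had 97.5%. Another 10 genes, those of oxygen sensing, encode the hypoxia-inducible factors, their partners and proteins that regulate these factors. Of these, 9 had a promoter site, compared to 54.7% of all protein-coding genes, with a median cover of 61.6%. The exception was Hif3a, and the widest site was that of the prolyl hydroxylase gene Egln2 with 2387 bp. Hif1a had sites of up to 1001 bp at its promoter and 6 distal sites. Arnt2 had 54 distal sites, or 26.5 per 100 kb.

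Among 15 other hypoxia targets, 13 had a promoter site, compared to 54.7% of all protein-coding genes. They had a median cover of 66.6% and a median of 8 distal sites over the 15 genes. Ndrg1 had 30 distal sites, or 37.3 per 100 kb, a higher density than that of Pkm. The median density of distal sites was 10.7 per 100 kb for these targets and 6.43 for the other glycolysis genes, both above the 5.78 of the 10 genes, and 2.45 for oxygen sensing. Mxi1, an antagonist of MYC, had the widest promoter site of these targets with 3734 bp. This was the only one of more than 2 kb among the 15 genes, compared to 8.91% of all protein-coding genes. No promoter site was listed for Car12, a carbonic anhydrase, and Ddit4, an inhibitor of mTOR signalling. The definition missed the sites near the start of Ddit4, which had a promoter cover of 87.4% and 99.6% of its body in sites. Unlike that of Vegfa, the reference TSS of Ddit4 was not itself in a site. The median of the widest promoter site was 1252 bp for these genes, 1326 bp for the other glycolysis genes and 1001 bp for oxygen sensing, all below the 2218 bp of the 10 genes. The 7 fibroblast markers, by contrast, were above the 10 genes, with a median widest promoter site of 3065 bp, 5 genes with one of more than 2 kb, a median cover of 100% and 21.1 distal sites per 100 kb. The lists were compared by counts and medians only, and the 10 genes were chosen with earlier results of these data known.

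**Figure D5:**
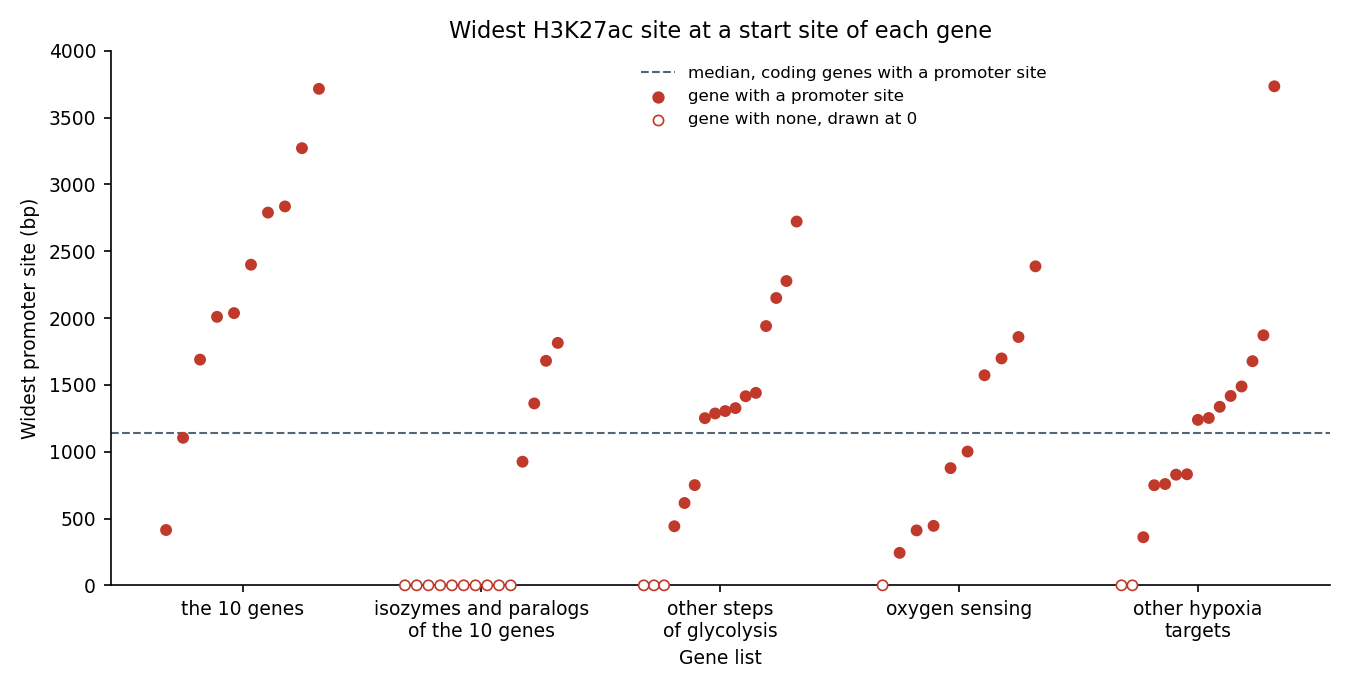
Width in bp of the widest promoter site (y axis) of each gene in 5 lists (x axis), with genes in order of width within a list. Open points at 0 are genes with no promoter site, and the dashed line is the median of 1141 bp for protein-coding genes with a promoter site. Of the 14 isozymes and paralogs, 10 are at 0, and 7 of the 10 genes are above 2000 bp. Of all protein-coding genes, 54.7% have a promoter site and 8.91% have one of more than 2 kb.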

How the data were processed

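The authors trimmed reads with Trim Galore, aligned them to GRCm38 (mm10) with BWA, merged replicates with Picard, called narrow peaks with MACS2 and joined the peaks of all samples. The threshold, the versions and the way of joining are not given in the sources used here. The deposited list holds a chromosome, a start and an end in bp for each of 122228 sites, with no counts, so the planned count tests were not run. If overlapping peaks were merged, a listed width can exceed that in any single sample.

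Starts were read as counted from 0, and positions are printed counted from 1. Genes and TSSs were from GENCODE M21 on the same build, whereas the authors used M25, and sequence was from GRCm38.p6. Of the 2 genes named Aldoa, the one whose reference transcript is in the consensus coding set was used. The reference TSS was taken by APPRIS rank, consensus coding set, exonic length and transcript ID, in this order. Promoter cover was the share of bases within 1 kb of it in sites. Regions were made of sites less than 1 kb apart. Repeated words were 75-base words, the number of sequencing cycles, counted on both strands. Where an interval is given for a share of genes, it is an exact (Clopper-Pearson) 95% interval, and the other shares are given without one. The members, the related lists and the printed sequences were chosen with earlier results of these data known, and genes named from the lists were those with no promoter site or the widest, with others added after their values were seen. Some genes of the isozyme list are not reported here. The tools were Python 3.11.15, pandas 2.3.3, numba 0.67.0, matplotlib 3.10.9, scipy 1.17.1 and numpy 2.4.6. The procedures were tested on simulated data.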

Additional observations from a re-analysis of the deposited data

How the results depend on the processing

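The 6 summary results of the 10 genes were recomputed under 39 alternatives, of which 3 were chosen after seeing the data, namely promoter cover at the TSS with the highest cover, and distal sites counted, in number and per 100 kb, only where the whole site lay beyond 1 kb. Of the 39 values, 36 remained within 1.5 times the reported value. With the reference TSS only, 5 of 10 genes had a promoter site, compared to 50.6% of protein-coding genes, and 4 of the 5 genes lost, all but Hk1, had a promoter cover of 83.9% or more. For Pkm and Vegfa, a wide site covered the reference TSS with its middle more than 1 kb away, and for Aldoa and Gapdh the reference TSS was in a gap between wide sites. The median density of distal sites was 15.6 per 100 kb with gene bodies only and 3.62 with sites within 3 kb of a TSS left out, and the median of all protein-coding genes was 0 in both. For the other alternatives, 8 to 10 genes had a promoter site, the median cover was 56.3 to 98.4%, the median of the widest promoter site was 1974.5 to 2835 bp, and the median number of distal sites was 3.5 to 6.5. Another 4 alternatives needed counts of reads and could not be run. No paired analysis was possible because values for single libraries were not analysed here. The depth behind a site was unknown, so a gene with no site cannot be told apart from a gene whose signal was too weak to be called.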
